A study of Rattus norvegicus with 25 samples.

Results

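Messenger RNA of rat hepatoma lines that overexpress Sar1B:H79G, a GTP-locked form of the GTPase Sar1B, was compared with that of a line that overexpresses its paralog Sar1A. The comparison used 12 of the 25 arrays of the series, namely the 8 arrays titled for Sar1B:H79G (2 cell lines, 4 arrays each) and the 4 arrays titled for Sar1A (1 cell line). The arrays were taken by their titles, and earlier results of these data were known when the comparison was chosen. All lines came from McArdle-RH7777, hepatoma cells of the rat that make and release lipoproteins with apoB. Each Sar1 line was 1 clone, stably transfected with a vector for the tetracycline repressor and with human Sar1 cDNA carrying a C-terminal FLAG tag under a tetracycline-regulated promoter. Both kinds of line were kept under selection with blasticidin (10 µg/ml) and Zeocin (250 µg/ml) and had received tetracycline (1 µg/ml) for 24 h before RNA was extracted. The 2 constructs differ in the isoform and in the H79G change together, and the study describes unequal amounts of recombinant Sar1 protein in the lines of these constructs, so that isoform, H79G change and amount cannot be told apart between the groups compared. The values of 2 lines with unmutated Sar1B (8 arrays) are therefore given beside them for the genes described in most detail, and 2 control lines (5 arrays, from an earlier array series) entered only the estimate of the spread.

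Sar1 is the small GTPase that starts the formation of COPII vesicles, which carry newly made proteins from the endoplasmic reticulum (ER) to the Golgi. In its GTP-bound form Sar1 inserts into the ER membrane and recruits first the inner coat of Sec23 and Sec24, which gathers cargo, and then the outer coat of Sec13 and Sec31, and hydrolysis of the GTP releases the coat. The H79G form binds GTP but cannot complete its hydrolysis, which disturbs completion of the vesicles and hinders transport from the ER. In the Sar1B:H79G lines the study reports near loss of apoB lipoprotein secretion and a smaller loss of total protein secretion. It concludes that enough endogenous Sar1 remained for the Srebp2 precursor to leave the ER. COPI vesicles run in the opposite direction and return escaped ER proteins, which the KDEL receptors recognize in the Golgi. Liver cells use this route for plasma proteins and apoB lipoproteins, and the SREBP precursors that control lipid synthesis genes also leave the ER in COPII vesicles.

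Signals are log2 values of Affymetrix rat arrays, 1 per probe set, and each gene is given by its brightest probe set. The arrays of a line were averaged, and the line means were compared with limma. Differences are log2 fold changes, Sar1B:H79G minus Sar1A, with their standard error (SE). All adjusted p-values are Benjamini-Hochberg values over 31042 probe sets and a gene is called when its value lies under 0.05. Where leaving out 1 line or 1 Sar1A array ended a call, the adjusted p of that fit follows the gene in parentheses. Since there is 1 Sar1A line, its spread was taken from the other groups, and an error given as SD (n = 2 lines) belongs to Sar1B:H79G. Nothing in the labels describes separate cultures of a line, so that the p-values measure the spread between these clones, which may be technical in part. Median signals were 8.132 in the Sar1A line and 8.13 and 8.114 in the Sar1B:H79G lines, and all 12 arrays belong to the same array series. Arrays of 1 line had a median correlation of 0.995, arrays of the 2 Sar1B:H79G lines 0.99, and arrays of Sar1B:H79G and Sar1A 0.979. The difference between 5′ and 3′ signals of β-actin, a measure of RNA quality, was -0.61 in the Sar1A line and -0.711 and -0.627 in the Sar1B:H79G lines, and its part in the results was not tested. Hepatocyte markers such as Ttr (13.59 in the Sar1A line) and Afp (14.49) were bright in all 3 lines. Of 7 measured hepatocyte markers, 1 was called lower in Sar1B:H79G, Hnf4a, and 0 higher (2 lower and 0 higher at an unadjusted p under 0.05 by limma). Their median log2 fold change was -0.27, and 6 of the 7 lay below 0. Of 29 measured markers of fibroblasts, leukocytes, endothelial cells and bile duct cells, 0 were called (0 at an unadjusted p under 0.05 by limma), and their summed log2 levels ran from 11.18 to 11.19, 10.43 to 10.51 and 9.96 to 9.99 over the 3 lines for the first 3 lists, and from 12.36 to 13.03 for the bile duct list, in which Spp1 was brightest. The bile duct marker Epcam was also bright, at 10.12 in the Sar1A line and 10.74 ± 0.20 in Sar1B:H79G.

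Of 31042 probe sets, 920 were called (2.96%), 413 higher in Sar1B:H79G (1.33%) and 507 lower (1.63%). Of 14217 genes, 597 differed between Sar1B:H79G and Sar1A (4.2%), 282 of them higher in Sar1B:H79G (1.98%) and 315 lower (2.22%). The median absolute log2 fold change was 0.1 over all genes and 0.86 over the called genes, of which 95 were at least 2-fold higher and 115 at least 2-fold lower. In each of the 597 both Sar1B:H79G lines lay on the same side of the Sar1A line, and in 595 the 8 arrays of Sar1B:H79G did not overlap the 4 arrays of Sar1A, against 3134 of all genes (22.0%), 1376 higher (9.68%) and 1758 lower (12.4%). At an unadjusted p under 0.05, 9.31% of genes were higher and 10.4% lower, which is the background for the unadjusted counts given with each list. Rises were led by Lcn2, a secreted siderophore-binding protein, by Ddit3 and Atf3, transcription factors of the stress response, and by the KDEL receptor Kdelr3. Falls were led by Rab37, a GTPase of vesicle transport, and by the lipid genes Fads1 and Insig1. Leaving out either control line gave the fit of the 5 lines of the same array series, in which 162 of the 597 genes kept the call, and without Sar1B:H79G line 2 the call held for 277. With only the 3 lines compared in the fit, limma called 0 probe sets, and 4193 lay at an unadjusted p under 0.05.

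**Figure D1:**
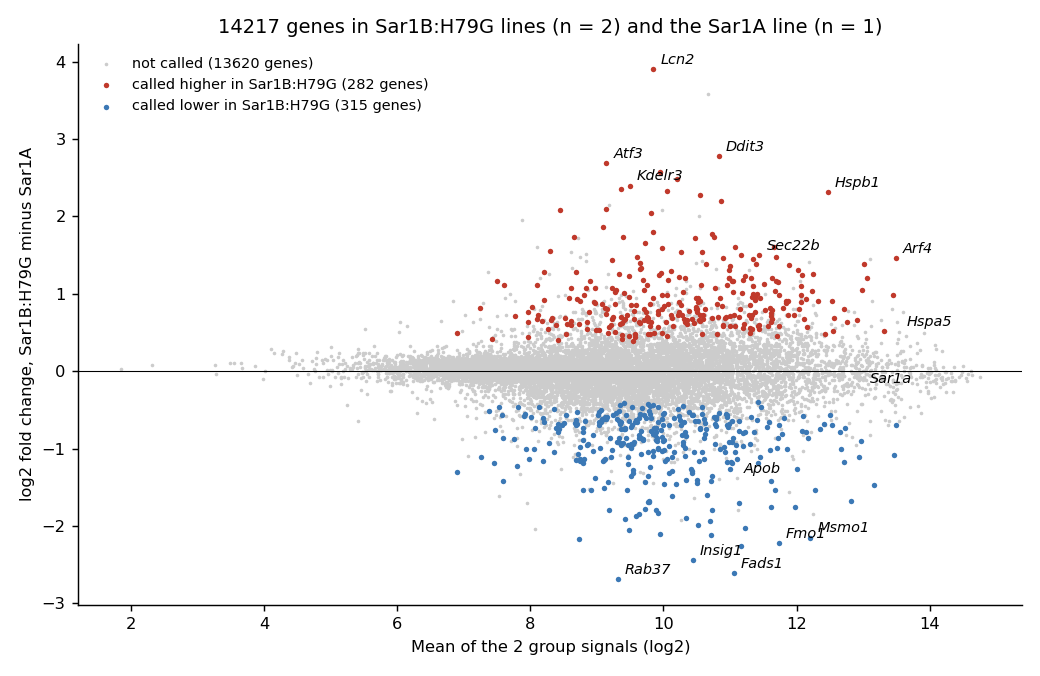
Each point is 1 of 14217 genes, with the mean of the group signals (log2) on the x axis and the log2 fold change of Sar1B:H79G (2 lines) minus Sar1A (1 line) on the y axis. The 282 genes called higher are red, the 315 called lower are blue and genes not called are grey, and the called genes begin at an absolute log2 fold change of 0.39, with Lcn2 highest at 3.90 and Rab37 lowest at -2.69.

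The signal of Rab37 set the Sar1A line apart from every other line. Its 4 Sar1A arrays read 10.84, 10.56, 10.64 and 10.60, whereas the 8 Sar1B:H79G arrays ran from 7.83 to 8.15 with a median of 7.96. The Sar1B lines had 7.83 and 7.80, close to those of Sar1B:H79G, and the difference of Sar1B:H79G from Sar1A was -2.69 (SE 0.09, adjusted p = 0.0024). It was the single gene called between Sar1A and Sar1B (log2 fold change of Sar1A minus Sar1B 2.84, adjusted p = 0.0017), where 0.00703% of all genes were called. The endogenous genes of the 2 isoforms were not called. Sar1b had 11.19 in the Sar1A line and 11.27 ± 0.04 (SD, n = 2 lines) in Sar1B:H79G. Sar1a had 12.90, 13.09, 13.03 and 13.38 on the Sar1A arrays, while the Sar1B:H79G arrays ran from 12.71 to 13.14 with a median of 12.84. Both groups overlapped, and the log2 fold change was -0.22 (SE 0.24, adjusted p = 0.85). The Sar1B lines lay lower for this probe set, at 12.05 and 11.46. A dimmer probe set of Sar1a differed, with 12.07 in the Sar1A line, 12.73 and 12.85 in the Sar1B:H79G lines and a log2 fold change of 0.72 (adjusted p = 0.2). Whether either rat probe set also binds the human transgene was not tested.

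Genes of retrograde transport were mostly higher in Sar1B:H79G. Of 20 genes of KDEL receptors and the COPI coat, 13 were higher in Sar1B:H79G and 0 lower (16 higher and 1 lower at an unadjusted p under 0.05 by limma), with a median difference of 0.95, against 0.015 over all genes. The Kdelr3 arrays read 8.45, 8.32, 8.19 and 8.23 in the Sar1A line, and the Sar1B:H79G arrays ran from 10.16 to 11.21 with a median of 10.69. No array of one group reached the other, and line 2 (11.11) lay above line 1 (10.27). This was a 5.26-fold higher signal, a log2 fold change of 2.40 (SE 0.35, adjusted p = 0.027), while the Sar1B lines stood at 8.09 and 8.45. Its paralog Kdelr2 rose by 1.20 (SE 0.09, adjusted p = 0.0075), whereas Kdelr1 had 0.10 (adjusted p = 0.9). Arf4, a GTPase that recruits COPI, had 12.76 in the Sar1A line and 14.22 ± 0.17 (SD, n = 2 lines) in Sar1B:H79G, a rise of 1.46 (SE 0.13, adjusted p = 0.0085). Of the other GTPases of this family, Arf1 had 0.45 (adjusted p = 0.14), Arf3 0.35 (adjusted p = 0.083) and Arf5 0.03 (adjusted p = 0.98). Among the coat subunits, Copg1 rose by 1.47 (SE 0.12, adjusted p = 0.0075), Copb2 by 1.39 (adjusted p = 0.0081), Copb1 by 1.17 (adjusted p = 0.0077), Cope by 1.15 (adjusted p = 0.0096), Copa by 1.05 (adjusted p = 0.0075) and Arcn1 by 0.99 (adjusted p = 0.012) on the log2 scale. The subunit paralog Copg2 had -0.38 (adjusted p = 0.43) and did not pass. Of the genes that switch Arf GTPases, the exchange factor Gbf1 rose by 0.91 (adjusted p = 0.0096) and the GTPase-activating Arfgap3 by 1.18 (adjusted p = 0.006). The call was lost for Kdelr3 (0.0881) without a control line, and the count of 13 stayed between 10 and 13 when any 1 line or any 1 Sar1A array was left out.

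**Figure D2:**
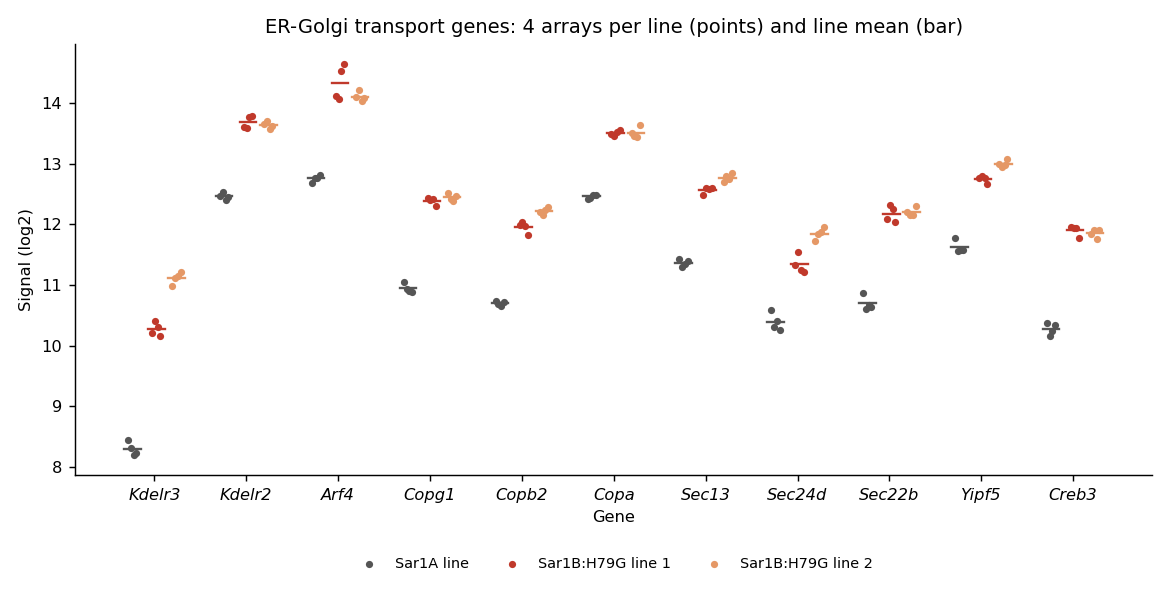
Log2 signal (y axis) of 11 ER-Golgi transport genes (x axis) on each of 12 arrays, with 4 points per line and a bar at the line mean. The genes drawn were picked from those called higher, so that the separation of their arrays is no added evidence. All Sar1B:H79G arrays lie above all Sar1A arrays for each, against 9.68% of all genes, and the gap is widest for Kdelr3.

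Several of these genes share a short sequence upstream of their start, the letters ACGTG, which lie within the elements bound by CREB3-family and other unfolded-protein-response factors. The sequences are shown for 3 transport genes and for Creb3, a membrane-bound transcription factor of the ER and Golgi and itself called. They are RefSeq sequences of the GRCr8 build, written along the gene, and capitals mark a match of ACGTG or of its reverse complement CACGT before the gene start.
Kdelr3, chr7:112959457-112959511, + strand: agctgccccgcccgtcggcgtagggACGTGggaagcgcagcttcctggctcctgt
Arf4, chr16:1903240-1903294, + strand: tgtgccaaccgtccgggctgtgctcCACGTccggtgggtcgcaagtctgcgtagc
Copg1, chr4:121923877-121923931, + strand: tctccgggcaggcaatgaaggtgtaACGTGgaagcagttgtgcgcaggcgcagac
Creb3, chr5:62613521-62613575, + strand: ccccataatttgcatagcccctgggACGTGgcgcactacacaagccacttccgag
Within 250 bases before to 50 after the start, ACGTG was found on either strand in 10 of 12 called KDEL receptor and COPI genes with a listed promoter, in 4 of 7 that were not called and in 19.7% of 27457 promoters. The letters TGACG, which overlap it where both form TGACGTG, were found in 8 of the 12, in 4 of the 7 and in 22.0% of all promoters. Among the SNAREs, tethers and golgins described further on, ACGTG was found in 5 of 9 called genes and in 9 of 13 not called. A match describes the sequence and not the binding of a factor. Creb3 had 10.37, 10.16, 10.24 and 10.34 on the Sar1A arrays and 11.88 ± 0.04 (SD, n = 2 lines) in Sar1B:H79G, a log2 fold change of 1.60 (SE 0.13, adjusted p = 0.0077). It was called in every fit that left out 1 line or array. The other 4 members of the family were not called (0 at an unadjusted p under 0.05 by limma), with log2 fold changes from -0.04 for Creb3l2 to 0.17 for Creb3l3.

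Of 16 measured genes of the COPII coat and its regulators, 6 were higher in Sar1B:H79G and 0 lower (7 higher and 0 lower at an unadjusted p under 0.05 by limma), with a median difference of 0.26. The outer coat gene Sec13 read 11.42, 11.29, 11.35 and 11.39 on the Sar1A arrays, and the Sar1B:H79G arrays ran from 12.49 to 12.85 with a median of 12.65. The arrays did not overlap, and the log2 fold change was 1.31 (SE 0.11, adjusted p = 0.0077). Its Sar1B lines lay between, at 11.82 and 11.86. Sec31a, the partner of Sec13, had 10.10 in the Sar1A line and 10.81 ± 0.19 (SD, n = 2 lines) in Sar1B:H79G, and its log2 fold change of 0.71 (SE 0.14, adjusted p = 0.061) did not pass. Of the inner coat, Sec24d rose by 1.20 (SE 0.19, adjusted p = 0.036), Sec23b by 0.73 (adjusted p = 0.019) and Sec24c by 0.48 (adjusted p = 0.049), whereas Sec24b had 0.09 (adjusted p = 0.89). Among the genes of ER exit sites, the cargo receptor Mia3, which helps to load large cargo, rose by 0.75 (SE 0.11, adjusted p = 0.03) and the scaffold Sec16a by 0.68 (adjusted p = 0.014), while Sec16b, Mia2 and Tfg had -0.10, 0.04 and 0.20 and were not called. Preb, the exchange factor that loads Sar1 with GTP, had 0.33 (adjusted p = 0.74). Sec23a, Sec24a and 2 further listed genes were not analysed here. The count of 6 was 1 without a control line, and calls were lost for Sec24d (0.112), Sec23b (0.061), Sec24c (0.114), Mia3 (0.0935) and Sec16a (0.0502) without a control line, Sec24c (0.0874) without line 1 of Sar1B:H79G, Sec24c (0.0581) without line 2 of Sar1B:H79G, Sec24d (0.0508) and Sec24c (0.0785) without either Sar1B line, and Sec24c (0.0503) without Sar1A array 4.

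SNAREs, tethers and golgins, which dock and fuse the vesicles between ER and Golgi, had 9 of 26 genes higher and 0 lower (17 higher and 0 lower at an unadjusted p under 0.05 by limma), with a median difference of 0.73. Sec22b, a SNARE of ER-Golgi vesicles, read 10.86, 10.61, 10.67 and 10.64 on the Sar1A arrays, and the Sar1B:H79G arrays ran from 12.04 to 12.32 with a median of 12.19. The groups did not overlap, both Sar1B:H79G lines had almost the same mean (12.18 and 12.21), and the log2 fold change was 1.50 (SE 0.08, adjusted p = 0.0043). The Sar1B lines stood near the Sar1A line, at 10.77 and 10.67. Bet1l, a Golgi SNARE, rose by 1.66 (SE 0.19, adjusted p = 0.015), and Bet1 by 1.11 (adjusted p = 0.045). The Golgi membrane proteins Yipf5 and Yif1a rose by 1.25 (adjusted p = 0.011) and 1.16 (adjusted p = 0.0077), and the tether Uso1 by 0.76 (adjusted p = 0.023). Rab6a, a GTPase of retrograde Golgi transport, rose by 0.93 (adjusted p = 0.031), whereas Rab1a and Rab1b, which act on the way out of the ER, had 0.26 (adjusted p = 0.4) and 0.00 (adjusted p = 1.0). The Golgi matrix genes Golga2 and Gorasp2 had 0.87 (adjusted p = 0.064) and 0.46 (adjusted p = 0.055). The count of 9 was 2 without a control line and 14 without line 1 of Sar1B:H79G. With 1 line left out, calls were lost for Bet1l (0.0634), Bet1 (0.129), Yipf5 (0.0502), Uso1 (0.0717) and Rab6a (0.0885) without a control line, Rab6a (0.0786) without line 2 of Sar1B:H79G, and Bet1 (0.0635) without either Sar1B line.

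Of 20 measured cargo receptors and p24 proteins, which select proteins for the vesicles, 1 was higher and 0 lower (5 higher and 3 lower at an unadjusted p under 0.05 by limma), and their median log2 fold change was 0.00. The called gene was Mcfd2, the partner of the lectin receptor Lman1 in the export of coagulation factors, with 11.87 in the Sar1A line, 12.78 ± 0.01 (SD, n = 2 lines) in Sar1B:H79G and a log2 fold change of 0.91 (SE 0.10, adjusted p = 0.013). Lman1 itself had 0.11 (adjusted p = 0.67). The p24 proteins ran from -0.22 for Tmed1 to 0.87 for Tmed5 (adjusted p = 0.15), and the cycling proteins Ergic1, Ergic2 and Ergic3 had -0.51, -0.46 and -0.31, of which the first missed the threshold (adjusted p = 0.053). The count of 1 higher gene was 3 without line 1 of Sar1B:H79G and 2 without Sar1A array 1, and the count of 0 lower genes was 1 without Sar1A array 2 and 1 without Sar1A array 4.

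**Figure D3:**
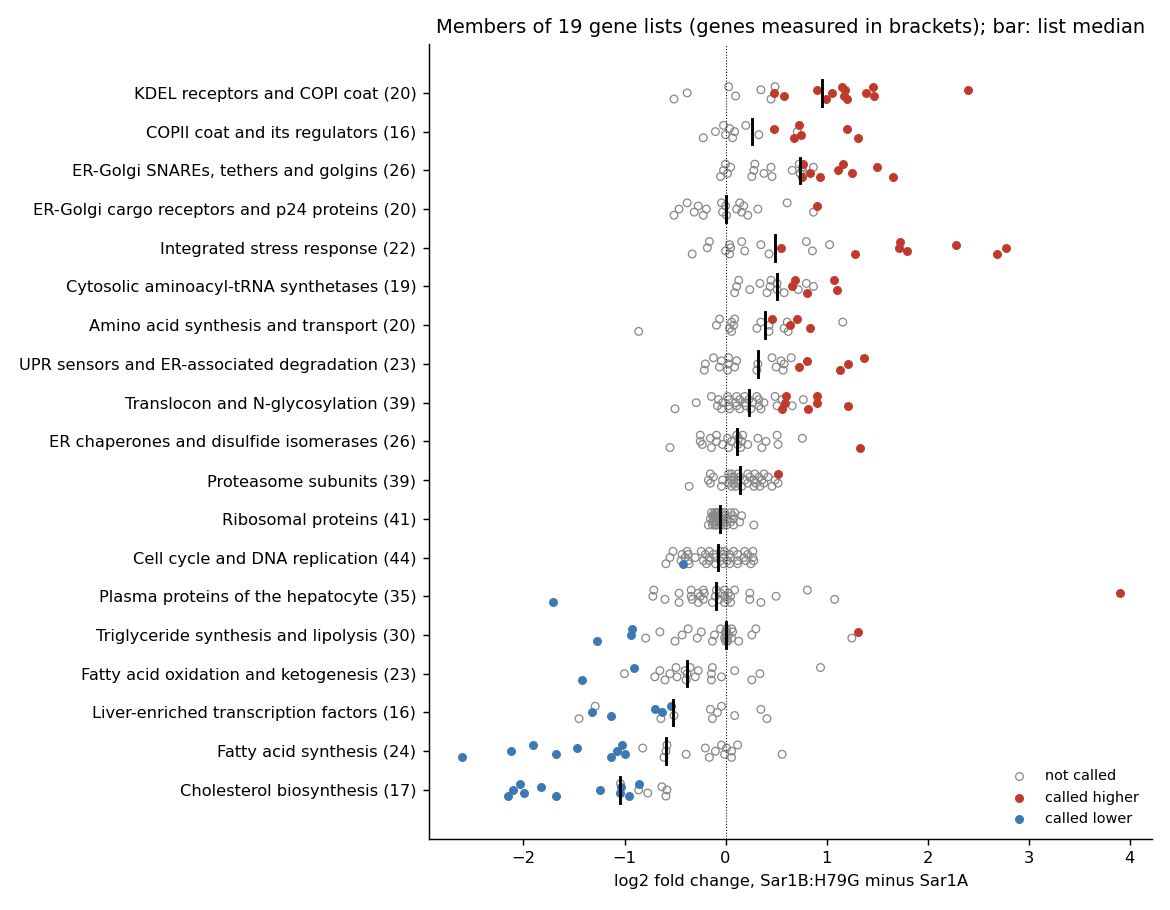
Log2 fold change of Sar1B:H79G minus Sar1A (x axis) for each measured member of 19 gene lists (y axis, number of genes in brackets), with filled points for called genes and a bar at the list median. All 17 cholesterol synthesis genes lie below 0, the medians of KDEL receptors and COPI (0.95) and of SNAREs, tethers and golgins (0.73) lie to the right, and ribosomal proteins stay close to 0.

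In the integrated stress response, phosphorylation of the initiation factor eIF2α slows translation and favors the transcription factors Atf4 and Ddit3. Several of its genes had higher mRNA in Sar1B:H79G, while the arrays do not measure the phosphorylation or the translation. Of 22 genes, 8 rose and 0 fell (12 higher and 1 lower at an unadjusted p under 0.05 by limma), with a median difference of 0.49. Ddit3, which encodes the factor CHOP, read 9.50, 9.45, 9.36 and 9.43 in the Sar1A line, and the Sar1B:H79G arrays ran from 12.01 to 12.45 with a median of 12.20. The arrays were far apart and the signal was 6.86-fold higher, a log2 fold change of 2.78 (SE 0.29, adjusted p = 0.012). The Sar1B lines had 9.57 and 8.83. Atf3, a further stress-induced factor, had 7.92, 7.89, 7.59 and 7.79 against a range from 10.22 to 10.74 with a median of 10.49 and rose by 2.69 (SE 0.24, adjusted p = 0.0086). Ppp1r15a, which returns eIF2α to its active form, rose by 2.28 (SE 0.15, adjusted p = 0.0059), the pseudokinase Trib3 by 1.73 (adjusted p = 0.013), the glutathione-degrading enzyme Chac1 by 1.80 (adjusted p = 0.006) and Sesn2 and Ddit4, which restrain mTORC1, by 1.72 (adjusted p = 0.0042) and 1.28 (adjusted p = 0.035). The mRNA of Atf4, which is mainly controlled in translation, had 0.80 (SE 0.23, adjusted p = 0.16), and the secreted factors Fgf21 and Gdf15 had 0.16 (adjusted p = 0.48) and 0.86 (adjusted p = 0.38). The 4 kinases that phosphorylate eIF2α were not called, with 0.19 for the ER sensor Eif2ak3 and -0.33 for the amino acid sensor Eif2ak4 (adjusted p = 0.2). The count of 8 was 4 without a control line, with calls lost for Ddit3 (0.0573), Trib3 (0.0502) and Ddit4 (0.114) without a control line.

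Among called members of this list, Trib3 and Chac1 hold the letters TGATGNAA of an ATF4 element close to their start. Their sequences (RefSeq, GRCr8) are given along the gene, with capitals for the element, which reads as its reverse complement in both.
Trib3, chr3:161275534-161275579, - strand: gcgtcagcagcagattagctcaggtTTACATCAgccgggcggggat
Chac1, chr3:126795939-126795996, + strand: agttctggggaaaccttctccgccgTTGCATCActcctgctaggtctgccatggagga
The element lay in 2 of 6 promoters of called genes of the list, in 3 of 14 of genes not called and in 3.82% of 27457 promoters. Fgf21, which was not called, was 1 of the 3.

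All 19 measured cytosolic aminoacyl-tRNA synthetases, which load tRNAs with amino acids, had log2 fold changes above 0, from 0.09 for Farsa to 1.10 for Sars1, with a median of 0.51. Of these, 5 were called higher and 0 lower (16 higher and 0 lower at an unadjusted p under 0.05 by limma). Sars1 had 11.51 in the Sar1A line and 12.62 ± 0.20 (SD, n = 2 lines) in Sar1B:H79G, a log2 fold change of 1.10 (SE 0.14, adjusted p = 0.019). Cars1 rose by 1.07 (adjusted p = 0.012) and Eprs1 by 0.81 (adjusted p = 0.028). Of 20 genes of amino acid synthesis and transport, 4 rose and 0 fell (10 higher and 1 lower at an unadjusted p under 0.05 by limma), among them Psph, the last enzyme of serine synthesis (0.84, adjusted p = 0.02), and the transporters Slc38a2 (0.71, adjusted p = 0.03) and Slc7a1 (0.64, adjusted p = 0.027). The cystine transporter gene Slc7a11 had a larger but more variable log2 fold change of 1.16 (SE 0.45, adjusted p = 0.3), and Asns, the asparagine synthetase, had 0.62 (SE 0.17, adjusted p = 0.13). The 5 synthetases were 3 without a control line and 2 without line 2 of Sar1B:H79G, and the 4 amino acid genes were 1 without a control line, 2 without line 1 of Sar1B:H79G and 0 without line 2 of Sar1B:H79G. Calls were lost for Sars1 (0.0705), Slc38a2 (0.0618) and Slc7a1 (0.0802) without a control line, Eprs1 (0.0532) and Slc38a2 (0.0555) without line 1 of Sar1B:H79G, and Eprs1 (0.0592), Psph (0.0523), Slc38a2 (0.0532) and Slc7a1 (0.0685) without line 2 of Sar1B:H79G.

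ER chaperones, whose rise marks the classical unfolded protein response, were mostly not called. Of 26 chaperones and disulfide isomerases, 1 was higher and 0 lower (4 higher and 0 lower at an unadjusted p under 0.05 by limma), with a median difference of 0.11. Hspa5, the main ER chaperone BiP, read 13.12, 13.29, 13.31 and 13.41 in the Sar1A line, and the Sar1B:H79G arrays ran from 13.65 to 14.03 with a median of 13.75. These arrays did not overlap, but the log2 fold change of 0.51 (SE 0.13, adjusted p = 0.11) did not pass. Hsp90b1, Calr and Pdia4 had 0.13 (adjusted p = 0.88), -0.15 (adjusted p = 0.68) and -0.25 (adjusted p = 0.87). The called gene was Dnajb9, a cofactor of Hspa5 that also acts in degradation, with 1.33 (SE 0.14, adjusted p = 0.012), whose Sar1B lines lay between at 9.28 and 9.60. Chaperone genes are known for the ER stress element, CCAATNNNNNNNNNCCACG. It is shown for Hspa5 and Calr (RefSeq, GRCr8, along the gene, element in capitals, in Calr as its reverse complement) because neither was called.
Hspa5, chr3:38452948-38453015, + strand: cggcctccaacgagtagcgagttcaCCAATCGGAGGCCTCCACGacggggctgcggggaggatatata
Calr, chr19:40213117-40213178, + strand: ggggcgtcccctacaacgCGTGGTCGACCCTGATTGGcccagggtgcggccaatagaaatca
It lay in 7 of 21 promoters of chaperone genes not called and in 0.0765% of 27457 promoters. The count of 1 was 0 without a control line, where the call was lost for Dnajb9 (0.0514).

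Genes of ER-associated degradation, which removes misfolded proteins from the ER, and of the response's sensors had 5 of 23 members higher and 0 lower (12 higher and 0 lower at an unadjusted p under 0.05 by limma), with a median of 0.32. Selenos, a membrane protein of the degradation complex, had 11.19 in the Sar1A line and 12.57 ± 0.00 (SD, n = 2 lines) in Sar1B:H79G, and rose by 1.37 (SE 0.09, adjusted p = 0.0056). Its Sar1B lines had 11.21 and 11.20. Herpud1, which organizes the same complex, rose by 1.21 (SE 0.15, adjusted p = 0.018), and the ubiquitin-conjugating enzymes Ube2j1 and Ube2g2 by 1.13 (adjusted p = 0.011) and 0.73 (adjusted p = 0.033). Of the sensors and factors, Atf6 rose by 0.81 (adjusted p = 0.014), whereas Xbp1 had -0.04 (adjusted p = 0.99) and Edem1, a lectin of degradation, 0.02 (adjusted p = 1.0). The sensor gene Ern1 was not analysed here. ACGTG was found in each of the 4 called genes with a listed promoter and in 4 of 14 not called, against 19.7% of all promoters. TGACG was found in 3 of the 4 and in 9 of the 14. In other lists ACGTG was also frequent among genes not called, with 12 of 21 chaperone genes, 8 of 18 cargo receptor and p24 genes and 4 of 9 COPII genes. Their called genes held it in 1 of 1, 1 of 1 and 3 of 4. The count of 5 was 2 without a control line, with calls lost for Herpud1 (0.0705), Ube2j1 (0.0502) and Ube2g2 (0.0885) without a control line, Ube2g2 (0.0542) without line 1 of Sar1B:H79G, and Ube2g2 (0.0851) without line 2 of Sar1B:H79G.

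Of 39 genes that bring proteins into the ER and attach N-glycans, 7 were higher and 0 lower (16 higher and 2 lower at an unadjusted p under 0.05 by limma), with a median of 0.23. Srpra, the receptor of the signal recognition particle, had 10.70 in the Sar1A line and 11.92 ± 0.17 (SD, n = 2 lines) in Sar1B:H79G, a log2 fold change of 1.21 (SE 0.12, adjusted p = 0.0098). Sec61a1, the channel subunit, rose by 0.91 (adjusted p = 0.022), Srp9, a subunit of the particle, by 0.82 (adjusted p = 0.039), and Dad1 and Stt3a, subunits of the oligosaccharyltransferase, by 0.91 (adjusted p = 0.0098) and 0.60 (adjusted p = 0.02). Stt3b, the second catalytic subunit of that enzyme, had -0.50 (adjusted p = 0.22). The count of 7 was 2 without a control line and 2 without line 2 of Sar1B:H79G, with calls lost for Sec61a1 (0.0734), Srp9 (0.109) and Stt3a (0.0654) without a control line, Srp9 (0.0684) without line 1 of Sar1B:H79G, and Sec61a1 (0.0504), Srp9 (0.0888) and Stt3a (0.0567) without line 2 of Sar1B:H79G.

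**Figure D4:**
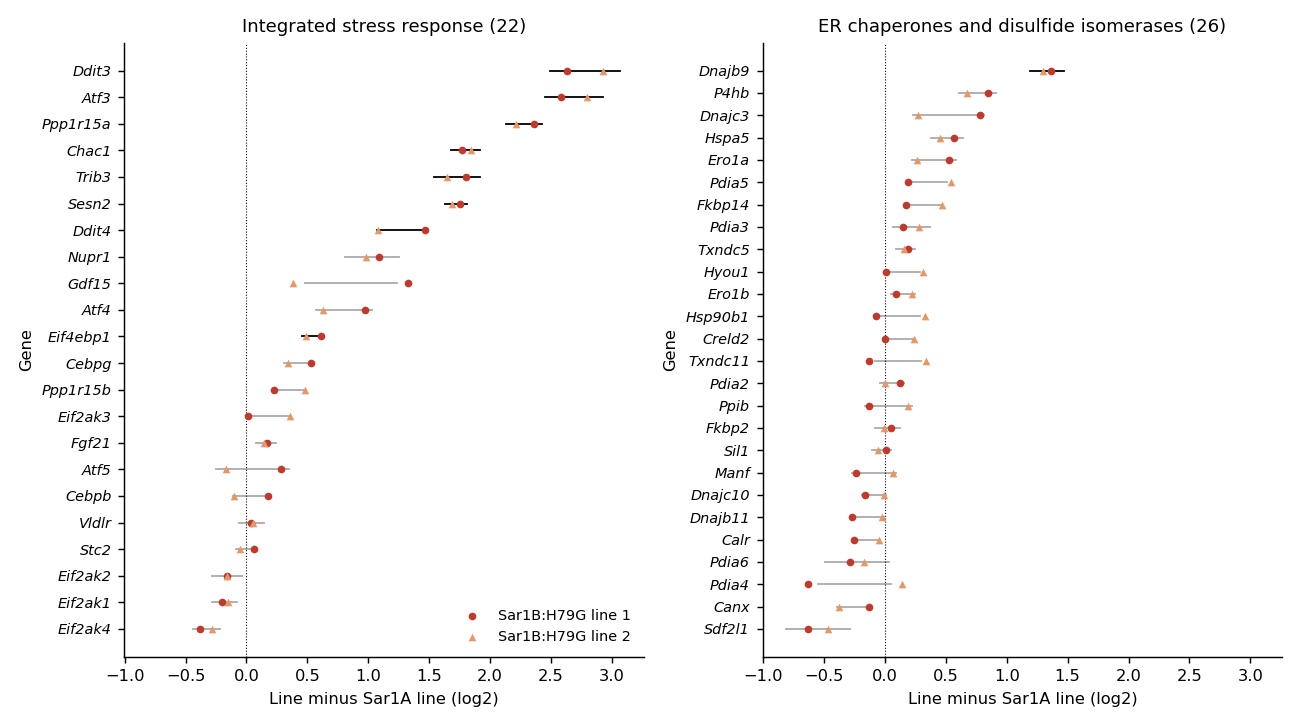
Difference of each Sar1B:H79G line mean from the Sar1A line (x axis, log2) for 22 genes of the integrated stress response and 26 ER chaperones and disulfide isomerases (y axis). Bars span the mean log2 fold change plus and minus 1 standard error and are black for called genes, of which there are 8 on the left and 1, Dnajb9, on the right.

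Genes of cholesterol biosynthesis were lower in Sar1B:H79G throughout. Of 17 measured genes, 11 were called lower and 0 higher (17 lower and 0 higher at an unadjusted p under 0.05 by limma), the median log2 fold change was -1.04, and for all 17 the arrays did not overlap (12.4% of all genes lay apart in this direction). The study examined this pathway on the same arrays, so that the list is not independent evidence of its direction. The study also measured representative genes by RT-qPCR in a separate experiment. Against empty-vector cells, it found less Hmgcs1 and Lss protein but more Dhcr7 protein in Sar1B:H79G cells. Msmo1, a demethylating oxidase of the sterol ring, had the largest fall of the list, from 13.28 in the Sar1A line to 11.13 ± 0.41 (SD, n = 2 lines), a log2 fold change of -2.15 (SE 0.27, adjusted p = 0.019). Fdft1, the squalene synthase, read 11.17, 10.94, 10.96 and 10.93 on the Sar1A arrays, and the Sar1B:H79G arrays ran from 8.59 to 9.29 with a median of 8.87. Its signal was 4.29-fold lower, a log2 fold change of -2.10 (SE 0.24, adjusted p = 0.014), and its Sar1B lines had 10.59 and 10.80. Acat2, at the entry of the pathway, read 11.61, 11.48, 11.53 and 11.43 and ran from 9.35 to 9.65 with a median of 9.55, and had -1.99 (SE 0.12, adjusted p = 0.0056). Idi1, the isomerase of isopentenyl diphosphate, had -2.03 (SE 0.16, adjusted p = 0.0075), Fdps, which makes farnesyl diphosphate, -1.68 (adjusted p = 0.021), and Dhcr7, which reduces 7-dehydrocholesterol, -1.83 (adjusted p = 0.0081). The Sar1B lines lay above both Sar1B:H79G lines for each of these genes, for example Idi1 with 12.23 and 12.28 beside 12.24 in the Sar1A line. The differences of Sqle, Tm7sf2, Sc5d, Cyp51, Lss and Mvk did not pass, and ran from -1.04 for Sqle (adjusted p = 0.085) to -0.58 for Mvk (adjusted p = 0.13). The count of 11 stayed between 8 and 12 with 1 line or Sar1A array left out, and calls were lost for Msmo1 (0.0573) and Fdft1 (0.0521) without a control line, and Fdps (0.0551) without line 2 of Sar1B:H79G.

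The core of the sterol element that SREBP factors bind, CACCCCA, is shown in 2 called genes (RefSeq, GRCr8, along the gene, core in capitals).
Acat2, chr1:50100630-50100686, + strand: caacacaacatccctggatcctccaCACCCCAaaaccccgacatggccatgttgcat
Ebp, chrX:16971238-16971294, + strand: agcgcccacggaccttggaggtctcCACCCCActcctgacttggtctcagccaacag
These 2 were the called cholesterol genes with the core among 9 with a listed promoter, 1 of 5 not called held it, and so did 6.79% of 27457 promoters. Ebp, a sterol isomerase, had a log2 fold change of -1.24 (SE 0.10, adjusted p = 0.0075).

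Among the regulators of the pathway, Insig1, which holds the SREBP precursor in the ER and is itself an SREBP target, read 11.54, 11.67, 11.60 and 11.83 on the Sar1A arrays, and the Sar1B:H79G arrays ran from 8.95 to 9.53 with a median of 9.23. The signal was 5.43-fold lower, with a log2 fold change of -2.44 (SE 0.20, adjusted p = 0.0075), while the Sar1B lines had 11.64 and 11.71. Srebf1, the gene of the SREBP that favors fatty acid synthesis, fell to 10.54 ± 0.15 (SD, n = 2 lines) from 11.68, with -1.14 (SE 0.15, adjusted p = 0.021). Of the 8 measured genes of SREBP regulation and sterol uptake these 2 were lower and 0 higher (7 lower and 0 higher at an unadjusted p under 0.05 by limma). Srebf2, Scap and Insig2 had -0.37 (adjusted p = 0.088), -0.25 (adjusted p = 0.17) and 0.33 (adjusted p = 0.64). The call was lost for Srebf1 (0.0511) without line 2 of Sar1B:H79G.

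**Figure D5:**
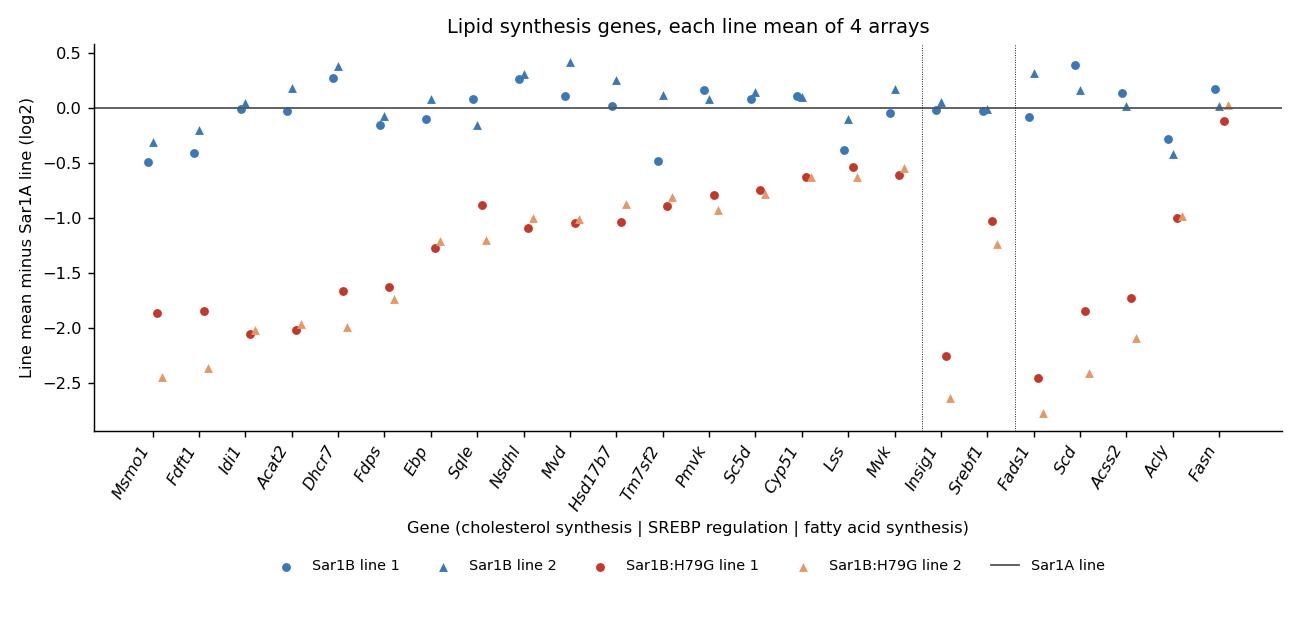
Mean log2 signal of each Sar1B and Sar1B:H79G line minus that of the Sar1A line (y axis) for 17 cholesterol synthesis genes, 2 SREBP regulators and 5 genes of fatty acid synthesis (x axis). Both Sar1B:H79G lines lie below the Sar1A line and below both Sar1B lines for every gene drawn except Fasn, which has a log2 fold change of -0.04.

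In fatty acid synthesis, 9 of 24 genes were lower and 0 higher (15 lower and 1 higher at an unadjusted p under 0.05 by limma), with a median of -0.59. The desaturase Fads1 read 12.49, 12.30, 12.30 and 12.35 in the Sar1A line, and the Sar1B:H79G arrays ran from 9.54 to 10.18 with a median of 9.72. It was 6.09-fold lower, with a log2 fold change of -2.61 (SE 0.20, adjusted p = 0.0075), and its Sar1B lines had 12.28 and 12.68. The stearoyl-CoA desaturases Scd and Scd2 had -2.12 (SE 0.24, adjusted p = 0.014) and -1.47 (adjusted p = 0.037), and Fads2 -1.13 (adjusted p = 0.035). Acss2 and Acly, which supply acetyl-CoA, had -1.91 (SE 0.18, adjusted p = 0.0096) and -1.0 (adjusted p = 0.023), the citrate carrier Slc25a1 -1.02 (adjusted p = 0.0075), the elongase Elovl6 -1.07 (adjusted p = 0.012) and the acyl-CoA synthetase Acsl3 -1.68 (adjusted p = 0.0056). Fasn, the fatty acid synthase, and Acaca, which makes malonyl-CoA, were not called, with -0.04 (SE 0.12, adjusted p = 0.97) and -0.39 (SE 0.09, adjusted p = 0.089). The count of 9 lay between 6 and 10 with 1 line or Sar1A array left out, the count of 0 higher genes was 1 without Sar1B:H79G line 1, and calls were lost for Scd (0.0602), Scd2 (0.102) and Fads2 (0.104) without a control line, Fads2 (0.0634) without line 1 of Sar1B:H79G, Fads2 (0.0664) and Acly (0.0562) without line 2 of Sar1B:H79G, and Scd2 (0.0519) without either Sar1B line.

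Of 23 genes of fatty acid oxidation and ketogenesis, 2 were lower and 0 higher (10 lower and 2 higher at an unadjusted p under 0.05 by limma), with a median of -0.38. Hadh, a mitochondrial dehydrogenase of the pathway, read 12.40, 12.32, 12.32 and 12.27 in the Sar1A line and ran from 10.80 to 11.11 with a median of 10.88 in Sar1B:H79G. The log2 fold change was -1.42 (SE 0.11, adjusted p = 0.0075). Acaa2, a thiolase, fell as well, with -0.91 (SE 0.11, adjusted p = 0.015). Cpt1a, which admits fatty acids to the mitochondria, had -1.0 (SE 0.26, adjusted p = 0.12) and Hadhb, a subunit of the trifunctional protein, 0.94 (SE 0.24, adjusted p = 0.11), and neither was called. Hadh and Acaa2 remained called without any 1 line, and 1 gene was called higher when either Sar1B line was left out.

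Few triglyceride genes were called. Of 30 measured genes, 1 was higher and 3 lower (2 higher and 7 lower at an unadjusted p under 0.05 by limma), with a median of 0.00. Over all genes, 1.98% were called higher and 2.22% lower, and the 1 higher gene lies near that share. The higher gene was Dgat2, which forms triglyceride from diacylglycerol, with 10.45, 10.33, 10.35 and 10.20 in the Sar1A line against a range from 11.49 to 11.74 with a median of 11.66. It rose by 1.31 (SE 0.11, adjusted p = 0.0084), and the Sar1B lines lay between at 11.13 and 10.98. Dgat1 had 0.30 (adjusted p = 0.45). The lower genes were the lysosomal lipase Lipa, with -1.27 (SE 0.13, adjusted p = 0.011), the lipid droplet protein Plin3, with -0.94 (SE 0.14, adjusted p = 0.028), and Gpam, which starts glycerolipid synthesis, with -0.93 (adjusted p = 0.032). The droplet protein Plin2 had -0.11 (adjusted p = 0.95). The count of 1 higher gene was 2 without either Sar1B line, the count of 3 lower genes was 1 without line 2 of Sar1B:H79G, and calls were lost for Gpam (0.0723) without a control line, Plin3 (0.0514) without line 1 of Sar1B:H79G, and Plin3 (0.066) and Gpam (0.064) without line 2 of Sar1B:H79G.

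Apob, the structural protein of secreted lipoproteins, read 12.01, 11.72, 11.72 and 11.71 in the Sar1A line, and the Sar1B:H79G arrays ran from 9.97 to 10.77 with a median of 10.51. The groups did not overlap, but the Sar1B:H79G lines differed from each other (10.07 and 10.75), and the log2 fold change was -1.38 (SE 0.42, adjusted p = 0.18). A dimmer probe set of Apob had 8.67 in the Sar1A line, 8.55 and 8.45 in the Sar1B:H79G lines and a log2 fold change of -0.18 (adjusted p = 0.58). Mttp, which loads apoB with lipid, had 9.78 in the Sar1A line and 8.31 and 9.56 in the Sar1B:H79G lines, with -0.84 (SE 0.45, adjusted p = 0.5). Its arrays overlapped between the groups, and both Sar1B lines lay higher, at 11.20 and 11.02. Of 21 genes of apoB lipoprotein assembly and apolipoproteins, the sorting receptor Sort1 alone was called, lower with -0.82 (SE 0.13, adjusted p = 0.036) (1 higher and 5 lower at an unadjusted p under 0.05 by limma). Called lower genes were 2.22% of all genes. Apoa1, Apoe and Apoc3 had -0.23 (adjusted p = 0.93), -0.34 (adjusted p = 0.66) and -0.17 (adjusted p = 0.93). The count of 1 was 0 without a control line, 0 without line 1 of Sar1B:H79G and 2 without line 2 of Sar1B:H79G, where Mttp was called (adjusted p = 0.0152), and calls were lost for Sort1 (0.0988) without a control line, Sort1 (0.0667) without line 1 of Sar1B:H79G, and Sort1 (0.0642) without line 2 of Sar1B:H79G.

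Liver-enriched transcription factors, which maintain hepatocyte gene expression, had 5 of 16 members lower and 0 higher (9 lower and 2 higher at an unadjusted p under 0.05 by limma), with a median of -0.53. Prox1 had 10.21 in the Sar1A line and 8.89 ± 0.10 (SD, n = 2 lines) in Sar1B:H79G, with -1.32 (SE 0.23, adjusted p = 0.042). Onecut1 had -1.13 (SE 0.15, adjusted p = 0.02), Foxa2 -0.70 (adjusted p = 0.048) and Hnf4a, a central regulator of hepatocyte genes, -0.63 (SE 0.09, adjusted p = 0.027). Dimmer probe sets were not called, with -0.04 for Prox1 (adjusted p = 0.97), -0.75 for Onecut1 (adjusted p = 0.092) and -0.41 and -0.37 for Hnf4a (adjusted p = 0.27 and 0.18). The brightest Onecut1 probe set was itself dim, with 8.55 in the Sar1A line and 7.42 in Sar1B:H79G. Its mean of 7.79 over the 12 arrays lay under the median signal of all probe sets (8.13). Cebpa had a larger log2 fold change of -1.45 (SE 0.29, adjusted p = 0.064), which did not pass. Each of these calls depended on 1 line or array. The count of 5 was 0 without a control line, 2 without line 1 of Sar1B:H79G, 3 without line 2 of Sar1B:H79G and 3 without Sar1A array 1, and calls were lost for Prox1 (0.127), Onecut1 (0.0502), Foxa2 (0.108) and Hnf4a (0.0723) without a control line, Prox1 (0.0566), Foxa2 (0.0813) and Hnf4a (0.0511) without line 1 of Sar1B:H79G, Prox1 (0.1), Onecut1 (0.0523) and Foxa2 (0.112) without line 2 of Sar1B:H79G, Prox1 (0.0533) and Foxa2 (0.056) without Sar1A array 1, and Foxa2 (0.0526) without Sar1A array 4.

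Plasma protein genes, the main cargo of the hepatocyte secretory route, mostly showed no call. Of 35 measured genes, 1 was higher and 1 lower (3 higher and 5 lower at an unadjusted p under 0.05 by limma), with a median of -0.09. These counts lie near the shares over all genes, 1.98% called higher and 2.22% lower. Lcn2 had the largest change of all called genes. Its Sar1A arrays read 7.80, 8.11, 7.94 and 7.75, the arrays of Sar1B:H79G ran from 11.04 to 12.65 with a median of 11.78, and the 2 lines differed (12.45 and 11.15). The signal was 14.9-fold higher, a log2 fold change of 3.90 (SE 0.53, adjusted p = 0.022), whereas the Sar1B lines had 8.28 and 7.67. Fga, a chain of fibrinogen, fell from 11.99 to 10.28 ± 0.33 (SD, n = 2 lines), with -1.71 (SE 0.25, adjusted p = 0.028), while the other chains Fgb and Fgg had -0.33 (adjusted p = 0.48) and 1.08 (adjusted p = 0.28). Alb, Serpina1 and Ttr had 0.50 (adjusted p = 0.85), -0.01 (adjusted p = 1.0) and -0.27 (adjusted p = 0.72). Calls were lost for Lcn2 (0.0836) and Fga (0.0566) without a control line, and Fga (0.0523) without line 2 of Sar1B:H79G.

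Genes of drug and sterol metabolism were lower where they were called. Of 37 cytochrome P450 and flavin monooxygenase genes, 3 were lower and 0 higher (4 lower and 1 higher at an unadjusted p under 0.05 by limma). The list as a whole was not shifted, with 18 genes above 0 and 19 below. Over all genes, 2.22% were called lower and 10.4% were lower at that unadjusted p. Fmo1, a flavin monooxygenase, read 12.83, 12.84, 12.86 and 12.82 in the Sar1A line, and the Sar1B:H79G arrays ran from 10.53 to 10.81 with a median of 10.60. This was 4.65-fold lower, with -2.22 (SE 0.10, adjusted p = 0.0042), and the Sar1B lines stayed with the Sar1A line at 12.86 and 12.67. Cyp27a1, which oxidizes the cholesterol side chain, and the electron donor Cyb5a had -1.45 (SE 0.14, adjusted p = 0.011) and -1.11 (SE 0.11, adjusted p = 0.011). The Sar1B lines lay between the groups for Cyp27a1, at 10.99 and 10.85. They did so for Cyb5a too, at 13.06 and 12.99, beside 13.50 in the Sar1A line and 12.39 in Sar1B:H79G. Of 31 phase II genes, 4 were lower and 0 higher (8 lower and 0 higher at an unadjusted p under 0.05 by limma), among them the glutathione transferases Mgst1 (-1.08, adjusted p = 0.014) and Gsta4 (-1.0, adjusted p = 0.0096) and the methyltransferase Tpmt (-0.75, adjusted p = 0.043). The P450 gene Cyp2c6v1, which is outside the list, had 9.81 in the Sar1A line, 7.64 ± 0.16 (SD, n = 2 lines) in Sar1B:H79G and -2.17 (SE 0.29, adjusted p = 0.021). The phase II count was 2 without a control line, 2 without line 1 of Sar1B:H79G and 2 without line 2 of Sar1B:H79G, and calls were lost for Tpmt (0.0707) and Cyp2c6v1 (0.0836) without a control line, Tpmt (0.0671) without line 1 of Sar1B:H79G, and Tpmt (0.104) and Cyp2c6v1 (0.0532) without line 2 of Sar1B:H79G.

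Genes of glycerol and amino acid breakdown were called in both directions. Of 33 genes, 2 were higher and 5 lower (6 higher and 8 lower at an unadjusted p under 0.05 by limma), with a median of 0.03. Aqp9, the water and glycerol channel of the hepatocyte, had 11.63 in the Sar1A line and 9.83 ± 0.28 (SD, n = 2 lines) in Sar1B:H79G, with -1.80 (SE 0.32, adjusted p = 0.046). Fah, an enzyme of tyrosine breakdown, and Glul, the glutamine synthetase, had -1.31 (SE 0.18, adjusted p = 0.024) and -1.26 (SE 0.20, adjusted p = 0.033). Cth, which makes cysteine, rose by 0.95 (adjusted p = 0.043). Of 22 transporters, the drug pump gene Abcb1a and the glucose carrier Slc2a1 rose by 2.04 (SE 0.29, adjusted p = 0.026) and 0.66 (SE 0.09, adjusted p = 0.026), and 0 fell (2 higher and 4 lower at an unadjusted p under 0.05 by limma). For breakdown, the count of higher genes was 0 without a control line, 4 without line 1 of Sar1B:H79G, 4 without line 2 of Sar1B:H79G and 4 without Sar1A array 1 and that of lower genes 2 without a control line and 0 without line 2 of Sar1B:H79G. The 2 higher transporters were 0 without a control line, 1 without line 1 of Sar1B:H79G and 1 without line 2 of Sar1B:H79G, and the 0 lower ones 1 without a control line and 1 without line 1 of Sar1B:H79G. Calls were lost for Aqp9 (0.119), Fah (0.0558), Cth (0.12), Abcb1a (0.0837) and Slc2a1 (0.0834) without a control line, Glul (0.0568) and Slc2a1 (0.051) without line 1 of Sar1B:H79G, Aqp9 (0.102), Fah (0.0616), Glul (0.0768) and Abcb1a (0.0593) without line 2 of Sar1B:H79G, and Cth (0.0618) without either Sar1B line.

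Growth arrest genes were also split, with 4 of 21 higher and 3 lower (6 higher and 4 lower at an unadjusted p under 0.05 by limma) and a median of 0.05. Gadd45a, a stress-induced growth arrest gene, rose by 2.20 (SE 0.28, adjusted p = 0.02), from 9.77 to 11.97 ± 0.49 (SD, n = 2 lines), with the Sar1B lines at 10.49 and 10.10. Jun, a subunit of AP-1, rose by 1.36 (SE 0.12, adjusted p = 0.0081), and the cyclin-dependent kinase inhibitor Cdkn1a by 0.95 (adjusted p = 0.049). Cdkn2a and Gadd45g fell, with -1.35 (SE 0.23, adjusted p = 0.039) and -1.14 (adjusted p = 0.031). Of 44 cell cycle and replication genes, 1 was lower and 0 higher (9 lower and 1 higher at an unadjusted p under 0.05 by limma), and this was Ccne1, with -0.42 (SE 0.07, adjusted p = 0.042). That count lies near the share over all genes, of which 2.22% were called lower. The higher count of growth arrest genes was 1 without a control line, 2 without line 1 of Sar1B:H79G and 2 without line 2 of Sar1B:H79G, the lower count 1 without a control line and 1 without line 2 of Sar1B:H79G, and the cell cycle count 0 without a control line, 0 without line 1 of Sar1B:H79G and 0 without either Sar1B line. Calls were lost for Gadd45a (0.081), Cdkn1a (0.131), Cdkn2a (0.107), Gadd45g (0.0999) and Ccne1 (0.0939) without a control line, Cdkn1a (0.0521), Cdkn2a (0.0607) and Ccne1 (0.0852) without line 1 of Sar1B:H79G, Cdkn1a (0.116), Cdkn2a (0.0905), Gadd45g (0.0552) and Ccne1 (0.107) without line 2 of Sar1B:H79G, and Ccne1 (0.0741) without either Sar1B line.

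Proteasome and lysosome genes held few calls and 4 further lists none. Of 39 proteasome genes, Psmd4 was higher (0.52, SE 0.08, adjusted p = 0.027) and 0 lower (11 higher and 0 lower at an unadjusted p under 0.05 by limma), with a median of 0.14. Of 42 lysosomal genes, 2 were higher, led by the proton pump subunit Atp6v1d (0.98, SE 0.17, adjusted p = 0.042), and 3 lower, led by the cathepsin Ctso (-1.30, SE 0.15, adjusted p = 0.014) (4 higher and 9 lower at an unadjusted p under 0.05 by limma). Ctso was dim, with 7.55 in the Sar1A line and 6.25 in Sar1B:H79G, under the median signal of all probe sets (8.13). Limma called 0 of 57 respiratory chain genes (4 higher and 6 lower at an unadjusted p under 0.05), 0 of 41 ribosomal protein genes (0 and 0), 0 of 21 NRF2 and glutathione genes (0 and 7) and 0 of 14 glucocorticoid response genes (5 and 1). Among the last, Tat and Sgk1 missed the threshold, with 1.43 (SE 0.27, adjusted p = 0.052) and 1.47 (SE 0.29, adjusted p = 0.058). The proteasome count was 0 without a control line, 3 without line 1 of Sar1B:H79G and 0 without line 2 of Sar1B:H79G. The lysosomal counts were 0 without a control line, 1 without line 2 of Sar1B:H79G and 0 without either Sar1B line for the higher genes and 1 without a control line for the lower. The glucocorticoid count of higher genes was 2 without line 1 of Sar1B:H79G, 1 without line 2 of Sar1B:H79G, 1 without either Sar1B line, 2 without Sar1A array 1, 1 without Sar1A array 2 and 1 without Sar1A array 3, the NRF2 count of lower genes was 2 without line 1 of Sar1B:H79G, and the respiratory count of lower genes was 1 without Sar1A array 1. Calls were lost for Psmd4 (0.0725), Atp6v1d (0.126) and Ctso (0.0504) without a control line, Psmd4 (0.0786) without line 2 of Sar1B:H79G, and Atp6v1d (0.0593) without either Sar1B line.

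Several of the largest changes lay outside these lists. RT1-T24-4, a class I histocompatibility gene of a family of similar copies whose signals may be shared, read 8.97, 8.64, 8.52 and 8.53 in the Sar1A line and ran from 11.03 to 11.45 with a median of 11.26 in Sar1B:H79G, a log2 fold change of 2.58 (SE 0.13, adjusted p = 0.0042). Arhgef2, a guanine nucleotide exchange factor, rose by 2.49 (SE 0.19, adjusted p = 0.0075), with 8.97 and 8.53 in the Sar1B lines beside 8.96 in the Sar1A line. Rhof, a small GTPase, rose by 2.10 (SE 0.17, adjusted p = 0.0075), the glycosyltransferase Gcnt2 by 2.35 (SE 0.15, adjusted p = 0.0056) and Cdr2 by 2.33 (SE 0.18, adjusted p = 0.0075). Hspb1, a small heat shock protein of the cytosol, rose by 2.31 (SE 0.41, adjusted p = 0.045), and its Sar1B lines lay at 12.69 and 11.55, above the 11.32 of the Sar1A line. Among the falls, Id2, an inhibitor of helix-loop-helix transcription factors, read 12.16, 12.16, 12.04 and 12.79 in the Sar1A line and ran from 9.73 to 10.47 with a median of 10.06, with -2.26 (SE 0.22, adjusted p = 0.011). Clcn4, a chloride and proton exchanger, had -2.05 (SE 0.10, adjusted p = 0.0042), and its Sar1B lines had 10.32 and 10.41. The call was lost for Hspb1 (0.136) without a control line, Hspb1 (0.0695) without line 1 of Sar1B:H79G, and Hspb1 (0.101) without line 2 of Sar1B:H79G.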

How the data were processed

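RNA was hybridised to Affymetrix rat genome arrays. The authors normalized the arrays with loess and MAS 5 in CARMAweb (version not given in the sources used here) and deposited 1 value per probe set, taken here as log2 from its range, since no base is stated. Detection calls and background levels were not used here. Arrays of a line were treated as technical replicates, following the study, and averaged. limma 3.58.1 (R 4.3.3) was fitted to 7 line means in 4 groups, with 3 residual and 3.16 prior degrees of freedom. The significance analysis named in the study's methods was not run. Of 31099 probe sets, 57 array controls were left out, and of the other 31042, 20826 had 1 gene symbol, 436 several and 9780 none. A gene was given by its brightest probe set with 1 symbol. Genes listed but absent from these were not analysed here. On simulated data the fit called 57% of probe sets changed by 1 on the log2 scale, 86% of those changed by 2, 8% of those changed by 0.5, and 1 unchanged probe set. The simulated noise was normal and independent, with the same spread in all lines of a probe set, the Sar1A line included. It therefore cannot test whether the Sar1A line varies like the others. Named genes were the 12 largest rises and falls among called genes above the median signal with arrays apart, the 3 most changed called members of each of 36 gene lists, and Sar1a, Sar1b, Apob and Mttp. Further list members and called genes were named after their values were seen. The comparison and the lists were chosen with earlier results of these data known. Alternatives changed the scaling, filter, probe set rule, spread estimate, block, threshold and the lines or arrays entered. Promoter sequences are those of RefSeq (GRCr8).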

Additional observations from a re-analysis of the deposited data

Results flagged for a closer look

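Single arrays that stood apart from the others of their construct were sought in 160 groups of arrays of named genes, and 15 were found. Chance alone would mark about 1 in 20 groups of independent, normally distributed values. The groups here share arrays, and each Sar1B:H79G group joins 2 lines, so that this rate need not hold for the 15 found. In 11 of the 15 the array was the first of the Sar1A line, always the highest of the 4. It read 12.01 for Apob (the nearest other Sar1A array 11.72), 10.11 for Cyp2c6v1 (9.74), 11.17 for Fdft1 (10.96), 11.98 for Mcfd2 (11.84), 9.99 for Mttp (9.73) and 8.80 for Onecut1 (8.49). It also read 10.85 for Slc38a2 (10.60), 10.21 for Sort1 (10.01), 11.81 for Srebf1 (11.65), 11.02 for Ube2j1 (10.92) and 11.78 for Yipf5 (11.58). Its mean correlation with the other Sar1A arrays was 0.9927, and those of the others ran from 0.9946 to 0.9954. Without it 531 of the 597 genes kept their call. The fourth Sar1A array read 12.79 for Id2, where the nearest was 12.16. Among the 8 Sar1B:H79G arrays, the second array of line 1 was highest for Cars1 with 11.41 (the nearest 11.34), for Fmo1 with 10.81 (10.64) and for Slc2a1 with 11.12 (10.92).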

How the results depend on the processing

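Of 920 probe sets called (413 higher, 507 lower), 597 were the probe sets of genes and 125 of list members, counted once. With 1 line or 1 Sar1A array left out, these 5 counts ran from 258 to 1164, 111 to 658, 147 to 573, 169 to 771 and 58 to 131, and the Sar1A arrays were left out by a choice made after seeing the data. The 5 lines of one array series gave 258, 111, 147, 169 and 58, and the 3 lines compared 0, 0, 0, 0 and 0 (limma, 4193 probe sets at an unadjusted p under 0.05). An adjusted p under 0.01 left 125, 67, 58, 91 and 34. Each array as a replicate gave 7215, 3275, 3940, 4300 and 412, and each array with the line as a random block 4526, 2008, 2518, 2866 and 330. The random block called Apob (adjusted p = 2.3e-05) and Mttp (adjusted p = 0.011). Median scaling, trended variance, quantile normalization, the mean of a gene's probe sets and a filter on dim probe sets kept the counts within 1.5 times, and of 80 named genes only Sar1a, which was not called, turned direction in any alternative, from -0.22 to 0.25 (adjusted p = 0.71) with the mean of its probe sets. With the mean of a gene's probe sets, Eprs1, Hnf4a, Mia3, Prox1 and Sec61a1 lost their call.

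The line number as a replicate block gave 719 probe sets, 325 higher and 394 lower, 475 genes and 108 list members. Deviations of equally numbered lines correlated at 0.0071, 0.192 and 0.0752. The numbers were taken as mere names of lines, which such correlations cannot settle. Of 80 named genes, 11 lost their call with the block.

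There is 1 Sar1A line and 1 clone per line, so that a difference between the constructs and a difference between clones cannot be told apart for the Sar1A side. Signal over background was not known, and 564 of the 597 called genes lay above the median signal.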

Other observations

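Among called genes outside the lists, chosen here after their values were seen, the following had large differences or are known from signaling. Id3, an inhibitor of helix-loop-helix factors and a target of BMP signaling like Id2, had 10.62 in the Sar1A line and 8.84 ± 0.17 (SD, n = 2 lines) in Sar1B:H79G, with a difference of -1.78 (SE 0.11, adjusted p = 0.0056). The Sar1B lines had 10.54 and 10.51. Bambi, a decoy receptor of the TGF-β family, had -1.75 (SE 0.19, adjusted p = 0.012), and its Sar1B lines stood between at 11.45 and 11.41. Id1 had -1.80 (SE 0.43, adjusted p = 0.097) and was not called. Of the Wnt pathway, the ligand Wnt4 had -1.42 (SE 0.12, adjusted p = 0.0081), with the Sar1B lines at 7.04 and 6.90, near the 6.88 ± 0.17 of Sar1B:H79G. These Wnt4 signals lay under the median signal of all probe sets (8.13). Lgr5, a receptor of R-spondins, had -0.94 (SE 0.09, adjusted p = 0.011), and Znrf3, which removes Wnt receptors, had -1.19 (SE 0.21, adjusted p = 0.044). Cyp26a1, which degrades retinoic acid, fell from 10.09 to 8.29 ± 0.04, with -1.80 (SE 0.09, adjusted p = 0.0042), while both Sar1B lines stayed at 10.02 and 10.13. The call was lost for Znrf3 (0.132) without a control line, Znrf3 (0.0501) without line 1 of Sar1B:H79G, Znrf3 (0.104) without line 2 of Sar1B:H79G, and Znrf3 (0.0583) without Sar1A array 1.

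Further called genes were chosen in the same way. The cytokine subunit Il23a rose from 8.16 to 10.02 ± 0.21, with 1.86 (SE 0.13, adjusted p = 0.006), and the Sar1B lines had 8.25 and 8.17. The inflammatory caspases Casp4 and Casp12 rose by 1.47 (SE 0.14, adjusted p = 0.0098) and 1.32 (SE 0.17, adjusted p = 0.021). The cytokine Il33 and the transcription factor Stat3 were lower, with -1.69 (SE 0.23, adjusted p = 0.022) and -1.18 (SE 0.13, adjusted p = 0.012). Arl1, a GTPase of the trans-Golgi, rose by 1.60 (SE 0.13, adjusted p = 0.0077) and the ubiquitin-like modifier Ufm1 by 1.24 (SE 0.17, adjusted p = 0.023). Calls were lost for Casp12 (0.0726), Il33 (0.0756), Stat3 (0.0502) and Ufm1 (0.062) without a control line, and Il33 (0.0504) without line 2 of Sar1B:H79G.

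Some of the largest differences did not pass the test. Ifi27, an interferon-induced gene, had 3.58 (SE 1.25, adjusted p = 0.24), while its 2 Sar1B lines differed from each other, at 13.51 and 10.24. Serpinf1, a secreted protein, had 2.00 (SE 0.38, adjusted p = 0.054), and Lbp, which binds lipopolysaccharide in plasma, 1.96 (SE 1.35, adjusted p = 0.66).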
